A study of Homo sapiens with 30 samples.

Results

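The NDRG family (N-myc downstream-regulated genes) comprises NDRG1, NDRG2, NDRG3 and NDRG4, and all 4 were followed over 30 arrays from human carcinoma cells. The members were taken by symbol, whatever their values, as the probe sets that carry only a member's symbol in the platform annotation, 1 probe set per gene: EOS00385 for NDRG1, EOS28409 for NDRG2, EOS08595 for NDRG3 and EOS33035 for NDRG4. They are 4 of 12690 single-symbol genes, and all 4 were among the 7614 genes (the upper 60% by mean value) that were tested.

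RNA was measured on a custom Affymetrix array, 1 array per sample, in RCC4 (a renal carcinoma line, 20 arrays), H1299 (a non-small cell lung cancer line, 4 arrays) and HCT116 (a colon carcinoma line, 6 arrays), all grown as monolayers. Hypoxia was oxygen below 0.01% in an anoxic incubator. RCC4 cells were either VHL-null or had wild-type VHL reintroduced (VHL-restored here), and the hypoxic times for each genotype were 0, 1, 2, 4, 6 and 18 h, followed by reoxygenation for 1 h or 4 h. H1299 cells were p53-null or had p53 reintroduced (labelled p53 wild-type) and were sampled at 0 h and 24 h, and HCT116 cells were p53-null or p53 wild-type and were sampled at 0, 12 and 24 h. Only the 4 RCC4 groups at 0 h and 18 h had 2 independent replicates, and 22 of the 26 groups rest on a single array. Separate clones are not named for any genotype, so other differences between the paired sublines cannot be told apart from VHL or p53.

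NDRG proteins share an alpha/beta hydrolase fold for which no catalytic activity is established. NDRG1 is a cytoplasmic protein that is repressed by MYC proteins, is a substrate of the kinases SGK1 and GSK3, and is widely used as a marker of hypoxia because its transcription is induced through hypoxia-inducible factor (HIF). VHL is part of the ubiquitin ligase that marks HIF alpha subunits for degradation in oxygen, so HIF target genes are active in oxygen in cells that lack it. NDRG2 is best known from brain, muscle and heart and as a candidate tumour suppressor, NDRG3 for a protein that has been described as lactate-binding and oxygen-regulated at the level of its stability, and NDRG4 from brain and heart and for promoter methylation in colorectal cancer.

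The arrays fell into 2 sets, told apart by 5 control entries, which 18 arrays leave blank (set 1) and the other 12 fill (set 2). Set 1 held replicate 1 of RCC4 at 0 h and 18 h, RCC4 at 2 h and 6 h, and every H1299 and HCT116 array, and set 2 held the other 12 RCC4 arrays. Median listed intensity ranged from 145 to 174 on set 1 arrays and from 201 to 222 on set 2 arrays, and the brightest entries were at 3577 to 5055, so each array was centred on its own median before log2 differences were taken. By counts of genes above the array median, markers of the tissues of origin did not separate the lines. Of 3 annotated renal genes, 1 exceeded it in RCC4, against 0 to 1 in H1299 and HCT116. Of 7 colon genes, 2 did in HCT116, against 2 in H1299 and 0 to 2 in RCC4. Of 5 lung genes, 2 did in H1299, against 2 to 3 elsewhere. An unrelated list scored at least as high, with 3 of 5 endothelial genes above it on every array. Summed renal signal (log2) was higher on every RCC4 array (lowest 0.88) than in H1299 (highest 0.58), but overlapped with HCT116 (highest 0.97). Summed colon signal was higher in HCT116 (lowest 1.83) than in RCC4 (highest 1.81), but overlapped with H1299 (highest 1.94). VHL itself was too dim to be tested.

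Some arrays stood against their labels. The array labelled H1299 p53 wild-type at 24 h had only 1 of 18 tested hypoxia-induced genes above the 0 h array of the same cells (median log2 difference -1.01), where the p53-null pair had 17 of 18 above (median 0.85). The mitophagy receptor gene BNIP3 read 200 on the 0 h array and 5 on the 24 h array of the p53 wild-type pair, and was null at 0 h and 203 at 24 h in the p53-null pair. In VHL-restored RCC4, the arrays labelled 1 h and 4 h had list medians of 1.40 and 1.43, as high as the 1.28 and 1.30 at 18 h, whereas those labelled 2 h and 6 h had 0.26 and 0.79. On the RCC4 arrays 2 genes, chosen after their values were seen, separated the genotypes: SYT13, a synaptotagmin, was 692 to 1529 on all VHL-null arrays and 23 to 109 on all VHL-restored arrays, and CCND2, a G1 cyclin, was 10 to 55 against 352 to 754, the 1 h and 4 h arrays included. For NDRG1, the 18 h and genotype averages over the RCC4 arrays, the fits that use H1299, the SD and the correlations are also given without the H1299 p53 wild-type arrays or the RCC4 1 h and 4 h arrays that they include.

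Of the 4 genes, NDRG1 was the one whose RNA varied widely. Its intensity ran from 146 to 1902 over the 30 arrays (median 1320), which placed it between percentiles 64.2 and 99.7 of all probe sets of an array. NDRG2 ran from 99 to 281 (median 189), NDRG3 from 345 to 458 (median 393) and NDRG4 from 105 to 183 (median 131). After centring, the SD over the 30 arrays was 0.94 on the log2 scale for NDRG1, and 96.7% of tested genes had a lower SD. It was 0.22 for NDRG2, 0.28 for NDRG3 and 0.21 for NDRG4, with 27.6%, 47.1% and 25.8% of tested genes lower. On the 24 arrays left without those 6, the SD was 0.88 for NDRG1, 0.20 for NDRG2, 0.27 for NDRG3 and 0.20 for NDRG4. The plot of all arrays shows NDRG1 spread over more than 3 log2 units and the other members in narrow bands.

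**Figure D1:**
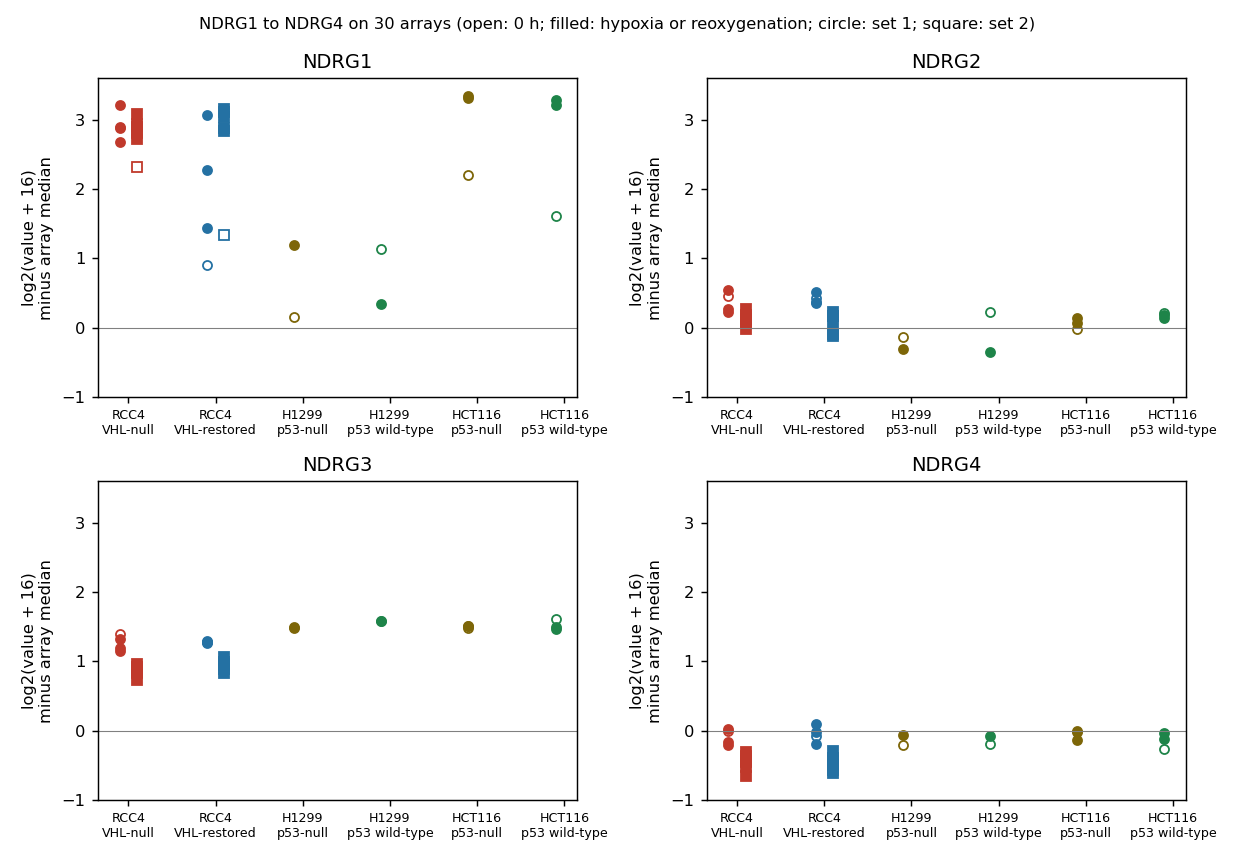
Each panel plots 1 member on all 30 arrays as log2(value + 16) minus the array median, by cell line and genotype, with open symbols for 0 h, filled symbols for hypoxia or reoxygenation, circles for array set 1 and squares for set 2. NDRG1 spans 3.20 log2 units, and NDRG2, NDRG3 and NDRG4 span 0.89, 0.89 and 0.75, with the RCC4 squares below the RCC4 circles for NDRG3 and NDRG4 and largely below them for NDRG2.

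In RCC4 at 0 h, NDRG1 was already high in cells without VHL. Its intensity was 1162 in replicate 1 and 1315 in replicate 2 of the VHL-null group. The VHL-restored group had 290 and 581. Both VHL-null arrays lay above both VHL-restored arrays. The log2 difference was 2.00 within set 1 and 0.99 within set 2, and the mean difference was 1.49 (SE 0.260, n = 2 per group). Without a block it was not called (limma adjusted p = 0.148), in a comparison where 9 of 7614 genes (0.118%) were, 0.105% higher and 0.0131% lower. The replicate number, which equals the array set here, marked a difference shared by the groups, and with it as a block NDRG1 was higher in VHL-null cells (SE 0.163, adjusted p = 1.38e-05), among 572 genes called (7.51%).

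After 18 h of hypoxia the genotypes were not separated. NDRG1 was 1489 and 1714 in VHL-null cells. It was 1325 and 1658 in VHL-restored cells, and the groups overlapped. The mean difference was 0.04 with a 95% interval of -0.56 to 0.64 (-0.31 to 0.39 with the block), and its sign differed between the sets, at 0.15 and -0.07. In this comparison limma called 2 genes (0.0263%) without the block and 578 (7.59%) with it, and NDRG1 was in neither (adjusted p = 1 and 0.933).

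The change from 0 h to 18 h was larger in VHL-restored than in VHL-null cells, in both array sets. VHL-restored cells went from 290 to 1325 in set 1 and from 581 to 1658 in set 2, a 4.49-fold and a 2.92-fold difference. VHL-null cells went from 1162 to 1489 and from 1315 to 1714, after centring a 1.25-fold and a 1.40-fold difference. Without the block the mean change of 1.86 in VHL-restored cells (SE 0.260) missed the threshold (limma adjusted p = 0.0790, 3 genes or 0.0394% called), and with it NDRG1 rose (SE 0.163, adjusted p = 1.84e-06, 501 genes or 6.58% called). In VHL-null cells the mean change was 0.40 (SE 0.260 and 0.163), not called by limma without the block (adjusted p = 1, 0 genes called, 51 at an unadjusted p under 0.05) or with it (adjusted p = 0.461, 37 genes or 0.486% called). Without the block, that value shifted with the array left out. It was 0.69 without replicate 1 and 0.12 without replicate 2 at 0 h. Without replicate 1 or 2 at 18 h it was 0.20 or 0.60. Each of these fits compares arrays of both sets with an array of a single set. Within the sets the change was 0.32 in set 1 and 0.49 in set 2.

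The difference of the changes, VHL-null minus VHL-restored, was -1.45 for NDRG1. Under the block limma called it (SE 0.231, adjusted p = 0.00533), as 1 of 43 genes (0.565%). Without the block 0 genes were called, with 45 at an unadjusted p under 0.05, and NDRG1 had SE 0.368 and an adjusted p of 1. Both array sets gave the same direction.

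**Figure D2:**
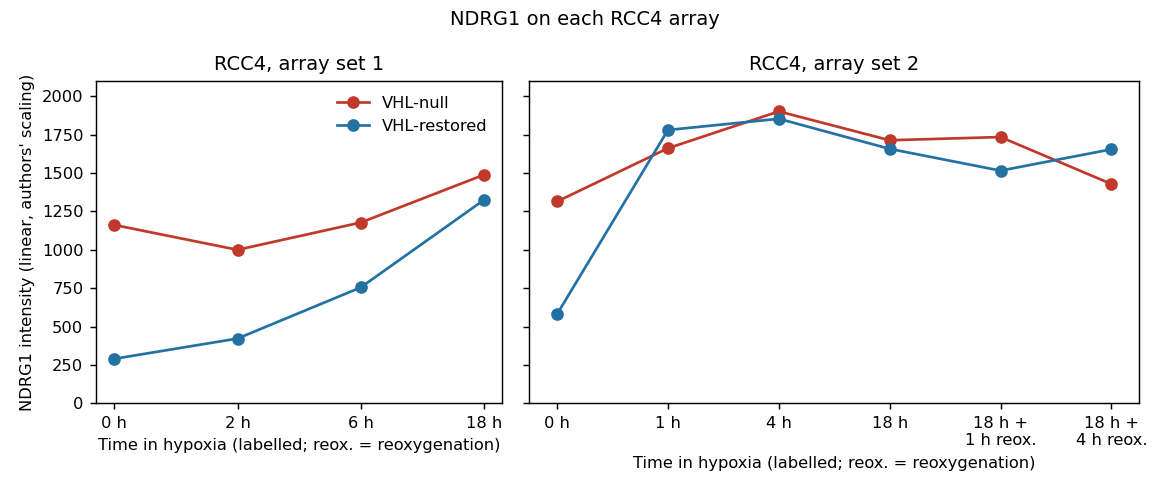
NDRG1 intensity (linear, from 0) on each RCC4 array by labelled time, with array set 1 on the left and set 2 on the right, red for VHL-null and blue for VHL-restored cells, 1 array per point. The VHL-restored line starts at 290 and 581 at 0 h and meets the VHL-null line at 18 h, and in set 2 it has met it on the array labelled 1 h.

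None of these differences was called for the other 3 members. At 0 h, NDRG2 was 201 and 273 on VHL-null arrays against 205 and 249 on VHL-restored arrays, NDRG3 was 399 and 458 against 388 and 443, and NDRG4 was 142 and 178 against 140 and 159. Within each gene the 2 VHL-null replicates lay further apart in intensity than the genotypes did in either replicate. The log2 changes after 18 h in VHL-restored cells were 0.08 for NDRG2, -0.05 for NDRG3 and -0.01 for NDRG4, with 95% intervals under the block of -0.12 to 0.28, -0.26 to 0.17 and -0.23 to 0.22. In VHL-null cells they were 0.11, -0.11 and 0.08, with intervals of -0.09 to 0.31, -0.32 to 0.10 and -0.14 to 0.31. Over the 5 contrasts of the replicated arrays, limma called 0 of these 3 genes with or without the block. The intervals leave out measured changes of the size NDRG1 had in VHL-restored cells. NDRG2 and NDRG4 were dimmer than NDRG1, however. Over the 30 arrays NDRG2 lay between percentiles 56.85 and 73.5 of all probe sets, and NDRG4 between 55.8 and 65.3. NDRG3 lay between 79.6 and 88.9. The scale used here understates changes of dim genes, so a change in these RNAs may be larger than the intervals show.

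NDRG1 was one of many hypoxia-responsive transcripts in these cells. Of 18 tested genes of a hypoxia-induced list that did not include NDRG1, all 18 had positive changes in VHL-restored cells at 18 h (median 1.34, against 0.05 over all tested genes), and 13 rose under the block and 2 without it (3.7% and 0.0394% of all genes). Among them were ADM, the vasodilator adrenomedullin (2.80 on the log2 scale), PPP1R3C, a glycogen-targeting phosphatase subunit (2.63), BNIP3 (2.38), the glycolytic enolase gene ENO2 (2.15), the lipid droplet gene HILPDA (1.65) and the stanniocalcin gene STC2 (1.64). Within the sets, 15 and 12 of the 18 changed less than NDRG1. In VHL-null cells 17 of 18 were positive (median 0.20), 4 rose under the block (0.276% of all genes) and 0 without it, and 12 of the 18 changed less than NDRG1 in each set. At 0 h, 14 of the 18 were higher in VHL-null cells under the block and 4 without it (median 0.79), as were 3.1% and 0.105% of all genes. For the interaction, 10 were lower under the block (0.499% of all genes) and 0 without it (median -0.98, against -0.03 over all tested genes).

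Genes known to act on NDRG1 were examined as a second list. It held 20 genes, of which 15 were annotated and 9 tested. In VHL-restored cells at 18 h, 1 of the 9 rose under the block, the AP-1 subunit gene JUN (0.39, SE 0.107, limma adjusted p = 0.0397), and 0 fell, while 0 were called without the block (JUN adjusted p = 1). Of all genes 3.7% rose there under the block. HIF1A, which encodes a HIF alpha subunit, had a change of -0.24 there and was not called. HIF1A RNA differed between the genotypes at 0 h: it was 367 and 667 on VHL-null arrays and 885 and 1504 on VHL-restored arrays. Each VHL-null array lay below the VHL-restored array of its set, the mean difference was -1.25 (SE 0.116, adjusted p = 1.86e-06 under the block, 0.139 without), and HIF1A was the 1 list member called lower (4.41% of all genes under the block). NDRG1 and HIF1A RNA differed in opposite directions between the genotypes in oxygen. MYC, MYCN, SGK1 and EGR1 were not among the tested genes.

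Over the 20 RCC4 arrays, with the mean of each array set subtracted, the genes whose profile was most like that of NDRG1 were ZNF395 (Pearson r = 0.98), ENO2 (0.96), BNIP3 (0.96), the adenylate kinase gene AK4 (0.95), the hexokinase gene HK1 (0.95) and the lysyl oxidase gene LOXL2 (0.95). Over all 30 arrays, without that subtraction, they were ENO2 (0.92), the cyclin gene CCNI (0.89), the phosphofructokinase gene PFKP (0.87) and the inositol trisphosphate receptor gene ITPR3 (0.86), so ENO2 was in both sets of names. Without the 1 h and 4 h arrays, over 16 RCC4 arrays, the first 6 had r = 0.98, 0.97, 0.97, 0.95, 0.97 and 0.95. Without those and the H1299 p53 wild-type arrays, over 24 arrays, the other 4 had r = 0.91, 0.84, 0.82 and 0.83. These values are descriptions over arrays that share sets and cell lines. The other members were not alike: over the 20 arrays NDRG1 had r = -0.06 with NDRG2, -0.05 with NDRG3 and 0.14 with NDRG4, and over the 16 arrays 0.06, -0.10 and 0.22.

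NDRG2, NDRG3 and NDRG4 had other neighbours. The most alike gene over the 20 RCC4 arrays was RNF4BP for NDRG2 (r = 0.84), TMEM234 for NDRG3 (0.87) and MTUS2 for NDRG4 (0.80). NDRG2 and NDRG4 had r = 0.35 with each other, NDRG2 and NDRG3 0.01, and NDRG3 and NDRG4 -0.11. Over the 16 arrays without 1 h and 4 h these values were 0.61, 0.06 and 0.03, so that of NDRG2 and NDRG4 depended on the arrays left in. Over all 30 arrays without set subtraction NDRG3 and NDRG4 had r = 0.74, a value that includes the difference between the array sets.

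Promoter letters were available for part of these genes. RefSeq promoter windows around gene starts (GRCh38.p14) were matched for NDRG2 (5 windows) and NDRG4 (4 windows), and NDRG1 and NDRG3 were not matched. Windows were searched on both strands for ACGTG, the core of the element that HIF binds, and for GCGTG, its other form. ENO2 and BNIP3 are shown because they followed NDRG1 most closely among the hypoxia-induced genes, and 1 window each of NDRG2 and NDRG4 as members that were not called. Capitals mark either motif on either strand, and each sequence is written 5′ to 3′ along its gene. ENO2 lies at chr12:6914330-6914629 (plus strand), BNIP3 at chr10:131981874-131982173 (minus strand), NDRG2 at chr14:21026261-21026560 (minus strand) and NDRG4 at chr16:58463465-58463764 (plus strand).
ENO2: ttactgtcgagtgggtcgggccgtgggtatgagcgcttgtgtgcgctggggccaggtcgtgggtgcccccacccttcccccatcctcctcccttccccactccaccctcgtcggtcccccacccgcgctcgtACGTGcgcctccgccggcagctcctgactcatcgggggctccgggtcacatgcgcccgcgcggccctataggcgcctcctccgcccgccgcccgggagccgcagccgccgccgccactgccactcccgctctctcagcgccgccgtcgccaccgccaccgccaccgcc
BNIP3: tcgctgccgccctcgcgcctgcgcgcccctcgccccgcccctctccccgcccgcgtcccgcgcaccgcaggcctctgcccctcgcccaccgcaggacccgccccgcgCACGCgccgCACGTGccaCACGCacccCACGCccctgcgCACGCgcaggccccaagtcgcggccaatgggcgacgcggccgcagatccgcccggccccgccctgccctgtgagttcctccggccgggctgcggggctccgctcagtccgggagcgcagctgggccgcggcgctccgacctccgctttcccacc
NDRG2: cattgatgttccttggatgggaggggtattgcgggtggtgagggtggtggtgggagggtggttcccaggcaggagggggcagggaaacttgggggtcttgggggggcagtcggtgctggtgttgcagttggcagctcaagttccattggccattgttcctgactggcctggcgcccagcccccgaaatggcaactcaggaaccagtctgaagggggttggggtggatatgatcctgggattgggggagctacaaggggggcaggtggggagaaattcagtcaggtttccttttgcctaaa
NDRG4: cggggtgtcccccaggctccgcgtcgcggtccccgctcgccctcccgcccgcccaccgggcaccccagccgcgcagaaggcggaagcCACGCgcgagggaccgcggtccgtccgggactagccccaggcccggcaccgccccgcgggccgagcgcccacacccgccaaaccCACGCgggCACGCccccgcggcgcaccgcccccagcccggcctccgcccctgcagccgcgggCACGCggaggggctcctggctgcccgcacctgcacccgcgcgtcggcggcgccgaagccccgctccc
The ENO2 window held 1 ACGTG, and the BNIP3 window held 2, which are the overlapping matches of 1 palindromic stretch read on both strands, plus 4 GCGTG. None of the 5 NDRG2 and 4 NDRG4 windows held ACGTG, and 3 and 1 of them held GCGTG, with 4 matches in the NDRG4 window shown. The NDRG2 window shown held neither motif, so it is not among those 3 and does not stand for them. Of all 35116 windows, 21.4% held ACGTG, 36.5% GCGTG and 48.4% either. By gene, 11 of the 15 matched genes of the tested hypoxia list (73.3%) held ACGTG in at least 1 window, against 24.9% of all 27305 genes.

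The time course was read within array sets, since times and sets are interleaved. In set 1, NDRG1 in VHL-restored cells was 290 at 0 h, 422 at 2 h, 755 at 6 h and 1325 at 18 h, which is 0.54, 1.37 and 2.17 above 0 h on the log2 scale. In VHL-null cells of the same set it was 1162, 1000, 1178 and 1489, or -0.21, -0.02 and 0.32 against 0 h. The VHL-restored values were in the order of the labelled times, and each lay below its VHL-null counterpart, by 1.24 at 2 h and 0.61 at 6 h. In set 2, VHL-restored cells had 581 at 0 h, 1781 at 1 h, 1854 at 4 h and 1658 at 18 h, and VHL-null cells had 1315, 1662, 1902 and 1714. On these arrays the 1 h and 4 h values were near those at 18 h in both genotypes, with 1.71 and 1.77 above 0 h in VHL-restored cells against 1.55 at 18 h.

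The hypoxia-induced list moved with NDRG1 on the same arrays. In VHL-restored cells 16 of its 18 genes were above 0 h at 2 h, 17 at 6 h and all 18 at 1 h, 4 h and 18 h. Under the array set as a block, 8 of 9 tested p53-induced genes were called higher at 4 h and 6 at 1 h, and 4 at 18 h, where 7.18%, 2.43% and 1.77% of all genes were called higher. No gene was called higher at 2 h or 6 h. The part of this in the NDRG1 values was not tested.

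Across the 20 RCC4 arrays, a fit with genotype and state gives each state's difference from 0 h averaged over both genotypes. For NDRG1 it averages unlike changes, such as the 1.86 and 0.40 at 18 h above. Its average log2 difference from 0 h was 1.13 at 1 h (SE 0.362, limma adjusted p = 0.137), 1.24 at 4 h (SE 0.362, adjusted p = 0.0556) and 1.13 at 18 h (SE 0.296, adjusted p = 0.172). Of all tested genes 1.37% were called at 1 h, 5.92% at 4 h (4.36% higher and 1.56% lower) and 0.171% at 18 h (0.118% higher and 0.0525% lower). With the array set as a block this average was called at 4 h (1.33, SE 0.385, adjusted p = 0.0382, 810 genes or 10.6% called) and at 18 h (1.13, SE 0.291, adjusted p = 0.0486, 225 genes or 2.96% called). At 1 h the blocked value was 1.22 (SE 0.385, adjusted p = 0.0965), at 2 h 0.11 (SE 0.385, 0.997) and at 6 h 0.62 (SE 0.385, 0.998). Without the 1 h and 4 h arrays and without the block, the 18 h value was 1.13 with an adjusted p of 0.266. Without them and with the block it was no longer called (1.13, SE 0.290, adjusted p = 0.0554, 195 genes or 2.56% called).

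The genotype difference of NDRG1, VHL-null minus VHL-restored and averaged over the states, was 0.44 (SE 0.187, limma adjusted p = 0.143, where 15.1% of genes were called, 7.14% higher and 7.97% lower). With the set block it was 0.44 (SE 0.184, adjusted p = 0.0744, 34.2% called). Without the 1 h and 4 h arrays it was 0.57 (SE 0.214, adjusted p = 0.134), and 0.57 (SE 0.205, adjusted p = 0.0594) with the block. It was not shared by the states: the pairs had 2.00 and 0.99 at 0 h, 1.24 at 2 h, 0.61 at 6 h, -0.11 at 1 h and -0.02 at 4 h. They had 0.15 and -0.07 at 18 h, and 0.04 and -0.43 after 1 h and 4 h of reoxygenation.

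In the fit over the 20 arrays NDRG2, NDRG3 and NDRG4 were not called at any state, with or without the set block. Without the block they read lower at the states that lie only in set 2, for example -0.31 for NDRG2 at 1 h and -0.29 for NDRG4 at 4 h. With it these values were -0.16 and -0.06, and all values of the 3 genes against 0 h lay between -0.19 and 0.14. The blank control entries that define the sets do not say what differed between them.

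After reoxygenation NDRG1 read near its 18 h values. The reoxygenation arrays are in set 2 and are set beside the 18 h arrays of that set. In VHL-null cells NDRG1 was 1714 at 18 h, 1735 after 1 h of reoxygenation and 1429 after 4 h. In VHL-restored cells it was 1658, 1516 and 1655. After centring, the differences from 18 h were 0.08 and -0.09 in VHL-null cells and -0.04 and 0.27 in VHL-restored cells, of either sign, with no replicate at these times. On the array with 0.27 the median over all tested genes also stood 0.13 above 18 h. Averaged over both genotypes, the 4 h value against 18 h was -0.06 (SE 0.362, 95% interval -0.82 to 0.71, limma adjusted p = 0.943, where 0.801% of genes were called, 0.131% higher and 0.67% lower), and 0.03 (adjusted p = 0.969) with the set block. Against 0 h it was 1.07 after 4 h (SE 0.362, adjusted p = 0.107, 3.31% of genes called, 1.64% higher and 1.67% lower), and 1.16 with the block (SE 0.385, adjusted p = 0.0627, 11% called). NDRG2, NDRG3 and NDRG4 were not called in any of these contrasts.

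Single hypoxia-induced genes ran different courses after reoxygenation. The ADM values were 842 at 18 h, 508 after 1 h and 126 after 4 h in VHL-null cells, and 765, 280 and 45 in VHL-restored cells, so each later array was lower than the one before. ENO2 had 1112, 1041 and 910 in VHL-null cells and 1200, 1183 and 1274 in VHL-restored cells. BNIP3 had 523, 476 and 412, and 511, 482 and 532. Of the 18 list genes, 8 and 14 were below their 18 h level in VHL-null cells after 1 h and 4 h, and 8 and 5 in VHL-restored cells. The list medians against 18 h were 0.02 and -0.14 in VHL-null cells, with 0.02 and -0.02 over all tested genes. In VHL-restored cells they were 0.01 and 0.15, with 0.03 and 0.13 over all tested genes. By the fit over both genotypes 2 of the 18 fell between 18 h and 4 h of reoxygenation, with and without the set block, and 0 rose. Of all tested genes 0.67% were called lower and 0.131% higher without the block, and 1.68% and 0.946% with it. After 4 h of reoxygenation ADM read below its 0 h values of 524 in VHL-null and 116 in VHL-restored cells, while NDRG1 read above its 0 h value in both genotypes.

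**Figure D3:**
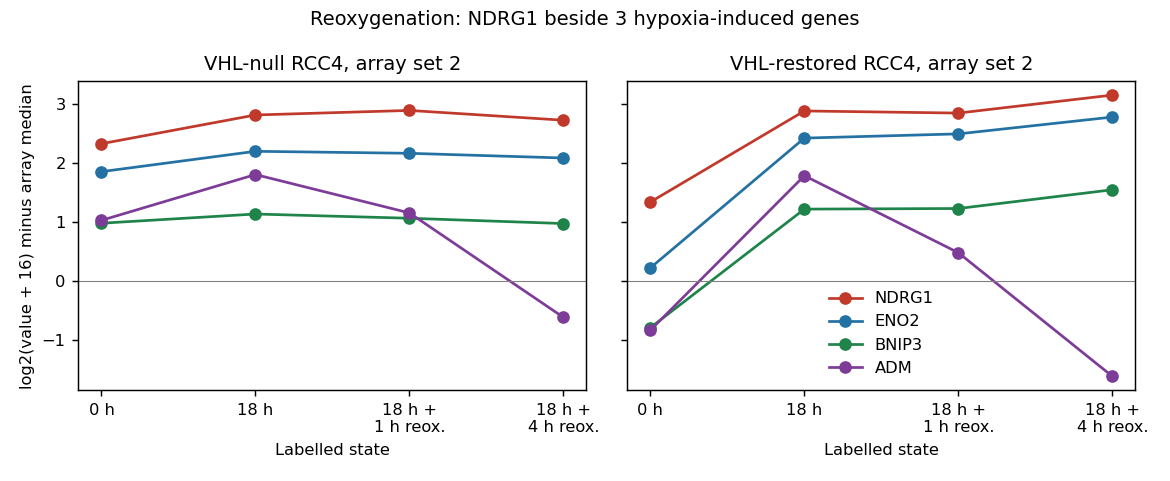
Values of NDRG1, ENO2, BNIP3 and ADM (log2(value + 16) minus the array median) on the set 2 arrays at 0 h, 18 h and 1 h and 4 h of reoxygenation, VHL-null on the left and VHL-restored on the right, 1 array per point. ADM reads -0.62 and -1.62 after 4 h of reoxygenation, against 1.80 and 1.78 at 18 h, while NDRG1 reads 2.73 and 3.15 against 2.81 and 2.88.

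In HCT116 cells NDRG1 was higher at both times of hypoxia in both p53 genotypes. It was 643 at 0 h, 1424 at 12 h and 1418 at 24 h in p53-null cells, and 425, 1305 and 1378 in p53 wild-type cells. All 4 hypoxia arrays lay above both 0 h arrays, and the 12 h and 24 h arrays of a genotype were close to each other. After centring, the differences from 0 h were 2.20-fold and 2.16-fold in p53-null and 3.06-fold and 3.23-fold in p53 wild-type cells. Of the 18 hypoxia-list genes, 17 to 18 were above 0 h on each of these arrays, and 9 to 12 of them changed less than NDRG1.

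In H1299 cells the 24 h difference had opposite signs in the p53 genotypes. NDRG1 was 146 at 0 h and 314 at 24 h in p53-null cells (2.06-fold after centring). It was 304 and 169 on the arrays labelled p53 wild-type (0.576-fold after centring). The 0 h and 24 h values of the p53 wild-type arrays lay in the reverse order of the p53-null arrays, as did ENO2, at 95 and 243 in p53-null and 269 and 85 on p53 wild-type arrays. Each of these groups is 1 array, so the difference has no replicate check. H1299 held the lowest NDRG1 values of the 3 lines, and its highest, 314, was below every HCT116 array.

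The 24 h change was fitted over the 4 backgrounds of H1299 and HCT116, which serve as replicates. NDRG1 had a mean change of 0.76 (SE 0.409, limma adjusted p = 0.654, 0 genes called and 427 at an unadjusted p under 0.05). Without both H1299 p53 wild-type arrays it was 1.28 (SE 0.149, adjusted p = 0.0946, 7 genes or 0.0919% called), and without the HCT116 p53 wild-type pair 0.45. In HCT116 alone, with its 12 h arrays, it was 1.40 (SE 0.154, adjusted p = 0.0271), as 1 of 290 genes called (3.81%), so NDRG1 rose there in a fit chosen after the data were seen. NDRG2, NDRG3 and NDRG4 had changes of -0.17, -0.03 and 0.06 over the 4 backgrounds and of 0.03, -0.07 and -0.0014 in HCT116 alone, and were not called in either fit.

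Over 6 backgrounds, with RCC4 at 18 h and the other lines at 24 h, the late change of NDRG1 was 0.88 (SE 0.330, limma adjusted p = 0.401, 0 genes called and 925 at an unadjusted p under 0.05). It was positive in 5 of the 6 backgrounds, all but the H1299 p53 wild-type pair, and 1.22 (SE 0.208, adjusted p = 0.120) without that pair, where 5 genes (0.0657%) were called. The other members had -0.08, -0.05 and 0.06, each with an interval that included 0.

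The p53 genotype was compared within line and time. For NDRG1 the log2 difference, p53 wild-type minus p53-null, was 0.99 at 0 h and -0.85 at 24 h in H1299, and -0.60, -0.12 and -0.02 at 0, 12 and 24 h in HCT116. The sign was negative in all 3 HCT116 pairs and split in H1299. The mean over 5 pairs was -0.12 (SE 0.250, 95% interval -0.72 to 0.48, limma adjusted p = 0.934, 0 genes called and 526 at an unadjusted p under 0.05), and -0.25 (SE 0.126, adjusted p = 0.775) in HCT116 alone, where 2 genes (0.0263%) were called. For NDRG2 it was 0.13 (interval -0.03 to 0.30), for NDRG3 0.05 (-0.06 to 0.16) and for NDRG4 -0.05 (-0.18 to 0.08). All 9 tested p53-induced genes had positive differences (median 0.16, against 0.00 over all genes), and 0 of them were called.

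**Figure D4:**
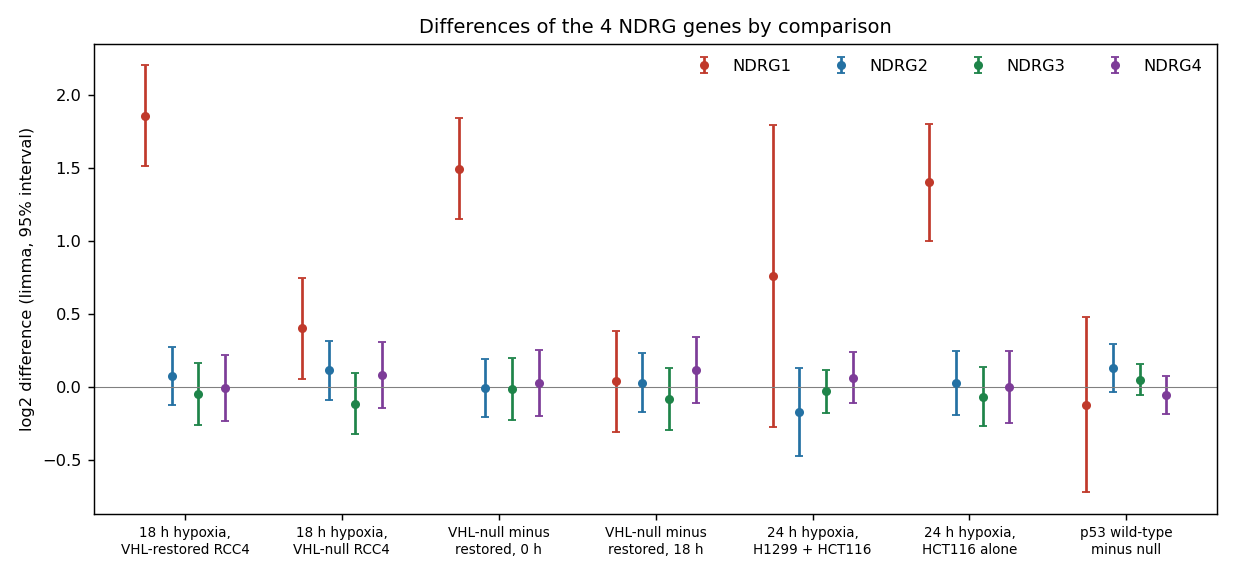
Log2 differences of the 4 members with limma 95% intervals (colour: gene) for 7 comparisons, with the replicate number as a block in the 4 RCC4 comparisons and without a replicate block in the others. NDRG1 stands at 1.86, 1.49 and 1.40 in VHL-restored hypoxia, VHL loss at 0 h and HCT116 hypoxia, while every interval of NDRG2, NDRG3 and NDRG4 includes 0.

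Between lines in oxygen, the 2 genotypes of a line served as its replicates. NDRG1 was 290 to 1315 in RCC4, 146 and 304 in H1299 and 643 and 425 in HCT116. The RCC4 range covered both HCT116 values, and HCT116 lay above H1299. The log2 difference was 1.23 for RCC4 over H1299 (SE 0.583, limma adjusted p = 0.127), 1.27 for HCT116 over H1299 (SE 0.583, 0.325) and -0.04 for RCC4 over HCT116 (SE 0.583, 0.958), none called. These fits called 55.4%, 6.2% and 60.3% of genes. Without the H1299 p53 wild-type array the differences from H1299 were 1.72 (SE 0.671, adjusted p = 0.0988) and 1.76 (SE 0.671, adjusted p = 0.270).

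NDRG3 was the 1 member called between lines. In oxygen it was 388 to 458 in RCC4, 393 and 422 in H1299 and 384 and 428 in HCT116, so the intensities overlapped as deposited. After centring it was lower in RCC4 by -0.41 against H1299 (SE 0.0811, adjusted p = 0.0103) and -0.43 against HCT116 (SE 0.0811, adjusted p = 0.00837), where the median of all tested genes also stood at -0.20 and -0.21. Without centring the differences were 0.05 and 0.05 (adjusted p = 0.685 and 0.636), and with RCC4 replicate 1 alone, on arrays of the same set as the other lines, -0.19 and -0.20 (0.199 and 0.158). Without the H1299 p53 wild-type array they were -0.36 and -0.43 (adjusted p = 0.0436 and 0.0126). The direction flipped without centring, and the call was lost without RCC4 replicate 2. NDRG2 and NDRG4 were not called between lines after centring, with differences of 0.25 and -0.04 for RCC4 over H1299 and 0.20 and -0.11 for RCC4 over HCT116. Without RCC4 replicate 1 NDRG4 was called lower than in HCT116 (-0.31, adjusted p = 0.0447). Without centring both read higher in RCC4, at 0.71 and 0.42 over H1299 (adjusted p = 0.0122 and 0.0204) and 0.68 and 0.37 over HCT116 (0.0127 and 0.0277). Leaving out centring moved the median of all tested genes from -0.20 to 0.26 for RCC4 over H1299 and from -0.21 to 0.27 for RCC4 over HCT116. The split of the genes called moved with it, from 1177 higher and 3040 lower to 3215 higher and 543 lower against H1299, and from 1325 and 3264 to 3490 and 656 against HCT116. Under quantile normalization it was 1424 and 1969 against H1299 and 1698 and 2172 against HCT116.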

How the data were processed

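The authors deposited 1 table per array of linear intensity in whole numbers, for 35409 probe sets, with some entries null (18.4% to 40.3% of an array). The lowest share was on the RCC4 VHL-null 0 h replicate 2 array. The other 0 h and 18 h arrays of set 2 in RCC4 had 27.1% to 33.4%. The highest share was on the VHL-restored array after 4 h of reoxygenation. The scaling and the meaning of null are not given in the sources used here. Of 17478 annotated probe sets 16905 carry a single symbol, and the brightest per gene gave 12690 genes. Null was taken as 0, values were used as log2(value + 16) and centred on each array's median (array medians span 0.90 log2), and the upper 60% of genes by mean were tested. A log2 difference on this scale understates changes of dim genes.

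All tests are two-sided and come from limma 3.58.1 (R 4.3.3), with Benjamini-Hochberg adjustment over 7614 genes and a threshold of 0.05. The scripts were tested on simulated data. Replicate differences correlated between groups at r = 0.794 to 0.916 over 6 pairs of groups. The main fits had no replicate block, and the replicate number was used as a block in an alternative fit. That number equals the array set at 0 h and 18 h of RCC4. Whether the block removes a set difference or pairs cultures therefore cannot be told. P-values measure the spread between these samples, and genotypes, times or lines that serve as replicates are not independent cultures of 1 condition.

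Members, lists and tests were chosen with earlier results of these data known. Named genes are the members, the 6 and 4 genes with the highest Pearson r to a member (20 RCC4 arrays and 30 arrays), and from each list at most 6 genes, those that changed most at 18 h in VHL-restored RCC4, with SYT13 and CCND2 added after their values were seen. Alternatives were another pseudocount, null as missing, no centring, quantile normalization, no filter, the mean of probe sets, blocks and leaving out arrays. Leaving out the H1299 p53 wild-type arrays or the RCC4 1 h and 4 h arrays, with and without the set block, and HCT116 alone, were added after seeing the data. Promoter sequences are RefSeq's (GRCh38.p14). For arrays, their number limits the precision.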

Additional observations from a re-analysis of the deposited data

Results flagged for a closer look

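In RCC4 the 18 h change of NDRG1 differed between the genotypes by the interaction term of limma with the replicate number as a block, at -1.45 on the log2 scale for VHL-null minus VHL-restored cells (SE 0.231, adjusted p = 0.00533, same direction in both array sets). Without the block the adjusted p was 1.

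In H1299 the 24 h difference of NDRG1 had opposite signs in the p53 genotypes, 1.04 in p53-null and -0.80 on the p53 wild-type arrays. With 1 array per group the difference between the genotypes was not tested. On the p53 wild-type pair 1 of 18 hypoxia-list genes was above 0 h, against 17 of 18 on the p53-null pair, and the part of this in the NDRG1 value was not tested.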

How the results depend on the processing

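Of 288 alternatives over 20 NDRG1 results, 261 kept direction and side of the threshold, 13 passed it and 14 changed sign. NDRG1 was not called in any of the 20 main fits, so those 261 stayed uncalled. The 24 h and late fits without the H1299 p53 wild-type pair are counted both as leave-one-out and as a later choice. Each member has 1 probe set, so the mean of probe sets changed only other genes, and through them the centring and the tests. NDRG1 passed it at 18 h in VHL-restored RCC4 with a pseudocount of 64 (1.73) and the replicate block (1.86), at 0 h between genotypes (1.49) and for the interaction (-1.45) with the block, at 4 h against 0 h with a pseudocount of 64 (1.20), mean probe sets (1.30) and the set block (1.33), at 18 h in both genotypes with the set block (1.13), and in HCT116 alone (1.40). Its sign turned, with adjusted p of at least 0.543, for VHL at 18 h (mean probe sets, -0.0026), 2 h against 0 h (no centring, -0.13), reoxygenation against 18 h (mean probe sets 0.030, set block 0.034, also without the 1 h and 4 h arrays) and RCC4 over HCT116 (pseudocount of 64 0.043, null as missing 0.17, no centring 0.44, quantile 0.21).

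With each replicate or pair left out in turn, NDRG1 ranged from -0.16 to 0.24 for VHL at 18 h, -0.066 to 0.49 at 2 h, -0.20 to 0.048 for reoxygenation against 18 h and -0.40 to 0.061 for p53. These signs turned without VHL-null 18 h replicate 1 or VHL-restored 18 h replicate 2, VHL-restored 0 h replicate 1, VHL-restored 18 h replicate 1 and the H1299 24 h pair, respectively. It ranged from 0.87 to 1.42 at 1 h, 0.97 to 1.53 at 4 h, 0.86 to 1.42 at 18 h and 0.81 to 1.36 at 4 h of reoxygenation, where leaving out VHL-null 0 h replicate 1 gave adjusted p of 0.0463, 0.0142, 0.0292 and 0.0339. These RCC4 fits had no set block. Leaving out VHL-null 0 h replicate 1 kept that group in set 2 only, where NDRG1 read 2.33 after centring, against 2.90 in set 1. With all arrays and the set block, 4 h and 18 h were called, and 1 h and 4 h of reoxygenation were not. NDRG1 ranged from 0.12 to 0.69 at 18 h in VHL-null RCC4, also without a block. At 24 h in H1299 and HCT116 it ranged from 0.45 to 1.28. Neither was called. NDRG4 ranged from -0.24 to 0.17 for RCC4 over H1299 and -0.31 to 0.094 over HCT116, positive without RCC4 replicate 2.

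Between lines NDRG3 in RCC4 also missed the threshold under quantile normalization (-0.23 and -0.23) and with null as missing (-0.21 and -0.21), and the sign turned for NDRG3 without centring (0.046 and 0.052 for RCC4, -0.0062 for HCT116 over H1299) and with mean probe sets (-0.0091), and for NDRG4 with null as missing (0.17 and 0.10) and without centring (0.42 and 0.37). The number called among NDRG2, NDRG3 and NDRG4 stayed 0 in 258 of 261 alternatives. With null as missing it was 1 at 1 h and at 4 h (NDRG2) and 1 at 4 h of reoxygenation (NDRG3). Elsewhere 107 of 783 values of these genes changed sign, with adjusted p of at least 0.325. The replicate block changed no other call of a member. The cause of these shifts was not tested.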
